A study of Mus musculus with 28 samples.

Results

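The breast brain metastasis (BrM) effect was measured in a pair of vascular cell sorts of the mouse brain, endothelial cells (CD31 sort) and mural cells (PDGFRb sort), and its difference between them was tested gene by gene. That difference, the interaction of sort and state, is the PDGFRb effect (breast BrM minus non-tumor) minus the CD31 effect. It rests on 19 of the 28 libraries of the series: 5 of CD31 cells from breast BrM, 5 of CD31 cells from non-tumor brain, 4 of PDGFRb cells from breast BrM and 5 of PDGFRb cells from non-tumor brain. The libraries were picked by these labels alone, and no measured value entered the choice. All mice were PDGFRβ-CreERT2; Rosa-tdTomato, in which tamoxifen, given daily, switches on a red reporter in cells that use the Pdgfrb promoter, so the sort holds whichever cells were marked then. The controls carry the same alleles. Metastases grew from PyMT-BrM3 cells, a brain-homing breast cancer line injected into the heart, and the groups therefore model 1 cell line. Whether control mice were injected, and the age of the mice, are not given in the sources used here. Cells free of CD45, CD11B and EPCAM were taken first, and CD31+ cells or tdTom+ cells were then selected. Each library comes from 1 mouse. Of the 10 mice 9 gave both sorts, and breast mouse 53142 gave CD31 cells only. Levels below are in CPM (counts-per-million, counts scaled to the TMM-adjusted library size), listed by rising mouse number: 51950, 52599, 52865, 53072 and, for CD31 only, 53142 in breast BrM, then 53680, 54132, 54135, 56727 and 56740 in non-tumor brain.

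Endothelial cells line the vessels. In the brain they are joined by tight junctions and carry transporters that move nutrients in and drugs out, which together form the blood-brain barrier. Mural cells, the pericytes of capillaries and the smooth muscle cells of larger vessels, wrap the endothelium and share its basement membrane. Signals between both cell types run through PDGF, TGF-beta and Notch ligands. Interferons act on both cell types by way of STAT and IRF transcription factors, which switch on antiviral genes and the MHC class I machinery that shows peptides to T cells.

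Libraries held 7105171 to 23934038 counts, and 3 counts in a library equal 0.115 to 0.48 CPM. The PDGFRb breast library of mouse 51950 stood apart, with the fewest counts and 9174 genes detected against 17004 to 22752 in the other 18. For mouse 54135 the titles and the cell type labels name opposite sorts, and the libraries were grouped by title. Pecam1, which encodes CD31, was at 1367 CPM in its library titled CD31 and at 3.89 in the other, and Pdgfrb at 0.228 and 831 CPM. Placed by the cell type label instead, these libraries left 6 genes with a higher and 24 with a lower PDGFRb effect in place of the 485 and 834 below. With both left out there were 295 and 520. Across the other CD31 libraries Pecam1 was at 668 to 1438 CPM and Pdgfrb at no more than 1.79, while the other PDGFRb libraries had Pdgfrb at 302 to 1413 CPM and Pecam1 at no more than 11.1. Ptprc (CD45) and Itgam (CD11B) stayed at or under 7.55 and 1.35 CPM in all 19. Epcam, whose product the gate selected against, was at 83.6, 14.4, 35.1, 412 and 40.8 CPM in CD31 breast and at 89.3, 73.5, 202 and 271 CPM in PDGFRb breast libraries, against at most 0.81 and 5.88 CPM in non-tumor ones. The summed level of the 20 epithelial markers was 675 to 6850 CPM in CD31 breast and 2660 to 10200 in PDGFRb breast libraries, against 23.2 to 68.7 and 31.4 to 319 CPM in non-tumor ones, with Krt5 at 0 throughout. Microglia and macrophage markers summed to 302, 177, 1570 and 313 CPM in PDGFRb breast against 46 to 171 in PDGFRb non-tumor libraries. In the CD31 sort the sums were 68 to 200 against 55.4 to 85.2 CPM. Astrocyte markers ran the other way in the PDGFRb sort, from 1720 to 6880 CPM in non-tumor to 1030 to 1410 in breast libraries. In the CD31 sort the astrocyte sum was higher in breast libraries (556 to 1010 against 355 to 497 CPM), but its members were mixed. Of 12 tested there, 2 rose and 3 fell, against 12.1% and 4.38% of all genes, and their median effect was -0.97 (log2). Oligodendrocyte markers were higher in PDGFRb breast libraries (372 to 683 against 135 to 341 CPM) and overlapped in the CD31 sort (44.7 to 221 against 37.1 to 71.8 CPM). In sorted cells, fewer cells of a type and less RNA per cell cannot be told apart.

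**Figure D1:**
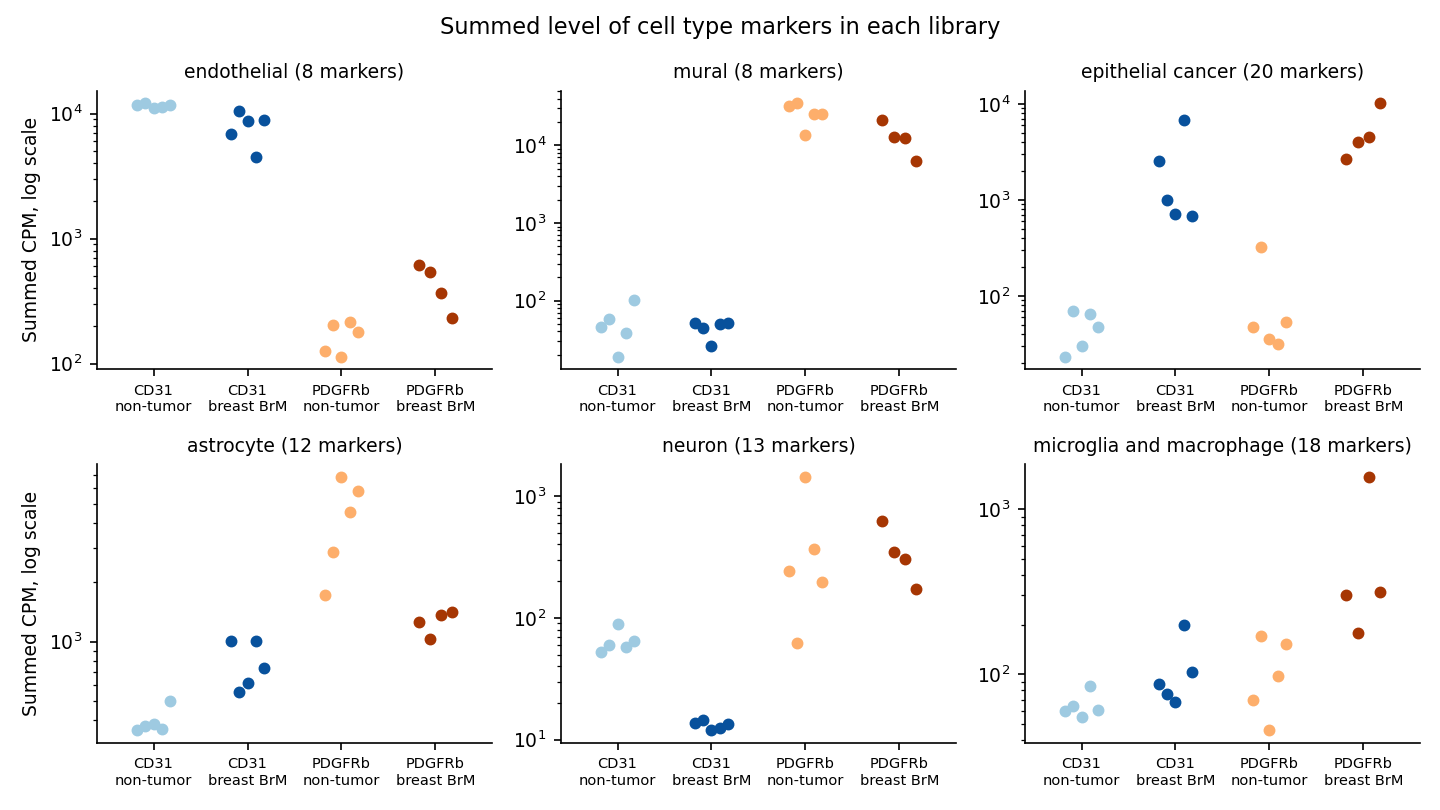
Summed CPM (log scale) of 6 lists of cell type markers, 1 point per library in the 4 groups. Endothelial and mural sums separate the sorts, and epithelial sums are higher in every breast BrM library (675 to 10200 CPM) than in every non-tumor library (23.2 to 319 CPM).

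Of 17606 genes tested, 1319 (7.49%) differed between the sorts in their breast BrM effect: 485 (2.75%) had the higher effect in the PDGFRb sort and 834 (4.74%) in the other (by the quasi-likelihood test of edgeR at a Benjamini-Hochberg adjusted p under 0.05, as for every call below). With the mouse as a block, which compares the sorts within each mouse, 345 were called, 153 higher and 192 lower, and 341 of them were among the 1319. Each effect on its own moved more genes: 2125 rose (12.1%) and 771 fell (4.38%) in the CD31 sort, and 2112 rose (12%) and 1437 fell (8.16%) in the PDGFRb sort, in all 2896 genes (16.4%) and 3549 genes (20.2%). Leaving out the PDGFRb breast library of mouse 51950 gave 1009 higher and 1690 lower differences. All 1319 genes then kept their sign and 1265 were called again. The share of calls with the higher effect in the PDGFRb sort was 36.8%, and 33% with RLE scaling. The median difference over all genes was -0.26 (log2). Among the 10026 genes with a mean of at least 5 CPM in both sorts, 391 had the higher and 381 the lower PDGFRb effect, and the median difference was -0.018.

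The 3 tests sort the genes into responses. Of concordant genes, called in both sorts in 1 direction, 893 rose in both (5.07%) and 252 fell in both (1.43%). Sort-specific genes were called in 1 sort, not called in the other, and differed between the sorts. Of these, 407 rose (2.31%) and 126 fell (0.716%) in the CD31 sort, and 267 rose (1.52%) and 250 fell (1.42%) in the PDGFRb sort. Opposite genes, called in both sorts in contrary directions, were of 2 kinds: 33 rose in the PDGFRb sort and fell in the CD31 sort (0.187%), and 82 did the reverse (0.466%). A further 1103 genes called in CD31 alone and 1772 in PDGFRb alone had no call for the difference and are left undecided (6.26% and 10.1%), and 12348 (70.1%) had no call at all. Concordant was not always equal: 68 of the genes that rose in both sorts also differed in size, 47 of them with the higher rise in the CD31 sort. Across the 10026 genes with a mean of at least 5 CPM in both sorts the effects correlated with r = 0.555, over genes of the same libraries, which are not independent. Class sizes moved with single libraries. Without the PDGFRb breast library of mouse 51950, 1409 genes rose in both and 1193 fell in both. That fit gave 137 and 202 opposite genes, 763 and 342 CD31-specific, and 392 and 514 PDGFRb-specific ones. Without the CD31 non-tumor library of mouse 54132, the 82 opposite genes were 53.

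**Figure D2:**
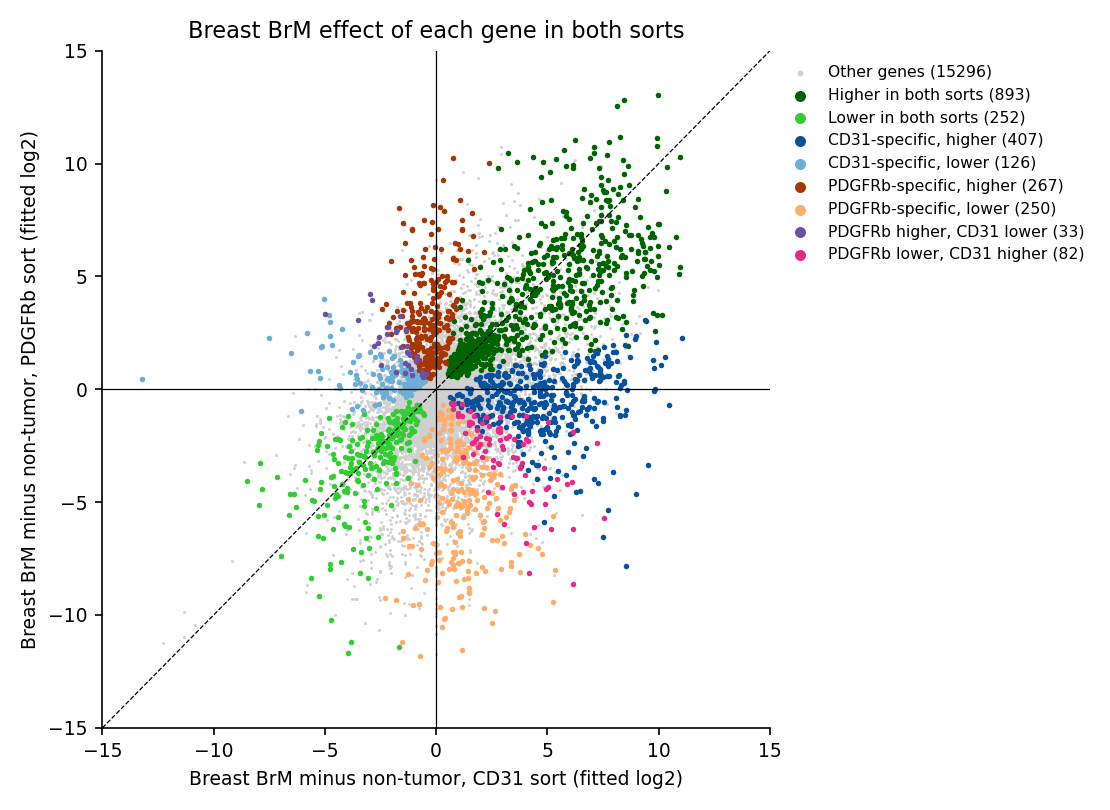
Each point is 1 of 17606 genes: its fitted log2 breast BrM effect in the CD31 sort (x) and in the PDGFRb sort (y), coloured by response, with equal effects on the dashed line. Genes that rose in both sorts (893) lie in the upper right and genes that fell in both (252) in the lower left, sort-specific genes along the axes, and the 33 and 82 opposite genes in the other corners.

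The interferon response genes rose in the PDGFRb sort. Of 42 tested, 37 rose in that sort (12%) and 5 in the CD31 sort (12.1%), none fell in either, and 25 had the higher effect in the PDGFRb sort (2.75%). Here and below, percentages after the counts of a list are the shares over all 17606 genes. With the mouse as a block the count of higher PDGFRb effects was 19, and without the PDGFRb breast library of mouse 51950, 36. The median effect of the 42 genes was 2.98 (log2) in the PDGFRb sort and 0.01 in the other, beside -0.16 and 0.09 over all genes. In non-tumor brain 40 of the 42 were lower in the PDGFRb sort than in the CD31 sort.

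Promoters of 4 of these genes are shown because they hold the letters of the core of an interferon-stimulated response element, the site that STAT and IRF complexes bind. They are the 4 with a match and the smallest adjusted p among the genes with the higher effect in the PDGFRb sort. The genes of a chromosome from which no sequence is shown were left out of this choice. Sequences come from RefSeq (GRCm38.p6) and lie before the gene start: Ifit3 at chr19:34583367-34583456 on the plus strand, Oas1a at chr5:120907526-120907579 on the minus strand, Gbp2 at chr3:142620564-142620653 on the plus strand and Isg15 at chr4:156200835-156200924 on the minus strand. Each runs 5′ to 3′ on the gene's strand, and capitals mark every match (overlapping ones joined) to the motif GAAA, any 2 bases and GAAA again, or its reverse complement, with TTTC in place of GAAA.
Ifit3: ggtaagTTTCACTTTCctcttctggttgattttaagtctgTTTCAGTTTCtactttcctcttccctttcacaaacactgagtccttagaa
Oas1a: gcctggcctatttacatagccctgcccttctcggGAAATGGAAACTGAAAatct
Gbp2: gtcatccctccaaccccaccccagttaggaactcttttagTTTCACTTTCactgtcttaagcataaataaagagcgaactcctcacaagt
Isg15: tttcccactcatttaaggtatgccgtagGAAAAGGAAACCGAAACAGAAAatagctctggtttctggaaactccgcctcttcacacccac
In the 250 bases before the gene start, on both strands, 9 of 20 such genes with a promoter in the table held the motif (45%), against 3.04% of all 27025 promoters. They come from a list of interferon response genes, so a share above that of all promoters follows from the choice of list. A promoter was found for 20 of the 25 genes. Over the whole list 16 of 31 promoters held it (51.6%). Members with and without a called difference were not compared for it, since only 31 of the 42 genes had a promoter in the table. A match describes letters in a window and is not a binding site.

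Irf7, the transcription factor that amplifies type I interferon, stood at 15.3, 21.2, 5.64, 8.91 and 13.9 CPM in PDGFRb non-tumor libraries and at 302, 469, 159 and 468 in PDGFRb breast libraries. In the CD31 sort it stood at 349.6, 357, 243, 355 and 338 CPM in non-tumor and 390.4, 249, 287, 543 and 660.2 in breast libraries. The PDGFRb groups did not overlap, whereas the CD31 groups did. The log2 effect was 4.75 ± 0.41 (SE; n = 4 and 5) in the PDGFRb sort and 0.37 ± 0.34 in the other (n = 5 each), and the difference between the effects was 4.37 ± 0.52 (adjusted p = 3.85e-05). Usp18, the protease that strips ISG15 from proteins and damps interferon receptor signalling, was at 10.2, 8.79, 3.72, 12.1 and 19.8 CPM without tumor and 393, 228, 101 and 203 with it in the PDGFRb sort, where every breast value was above every non-tumor one. CD31 libraries had 198, 229, 202, 222 and 179 CPM without tumor and 163, 154, 152, 212 and 260.0 with it, and the difference between the effects was 4.53 ± 0.53 (adjusted p = 3.32e-05). Ifit3, which binds viral RNA together with other IFIT proteins, rose from 23.5, 40.2, 19.5, 31.6 and 35.2 to 365, 460.1, 95.6 and 381 CPM in the PDGFRb sort, with the lowest breast value in mouse 52865. Its CD31 effect was 0.01 ± 0.35, and the difference between the effects was 3.43 ± 0.52 (adjusted p = 4.39e-04). Reads of Ifit3 and of its near copy Ifit3b may have been split between them, as may those of the Oas, Gbp and H2 families, so single members are uncertain.

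Other members followed by role. Sensors of viral RNA, Ddx58 and Ifih1, had PDGFRb effects of 1.91 ± 0.29 and 2.29 ± 0.41 and CD31 effects of 0.08 ± 0.27 and -0.67 ± 0.38. Both differences were called, that of Ifih1 at an adjusted p of 0.00288, and of 0.0605 with the mouse as a block. The transcription factor Irf1 rose by 1.75 ± 0.32 in the PDGFRb sort (adjusted p of the difference 0.00613), and Stat2 rose by 1.01 ± 0.31 there without a called difference (0.0897). Gbp4, a guanylate-binding protein of cell-intrinsic defence and the PDGFRb-specific riser that the naming rule put first, was at 0.0605, 0.1, 0.0874, 0.257 and 2.03 CPM in PDGFRb non-tumor and 0.32, 48.8, 24.6 and 85.6 in PDGFRb breast libraries. Its level in mouse 51950 lay within the non-tumor range while the other 3 breast libraries were all above 20 CPM, and the difference between the effects was 6.71 ± 1.29 (adjusted p = 0.0032). A few members rose in both sorts. Mx1, a dynamin-like antiviral GTPase, rose by 5.66 ± 1.28 in the PDGFRb and 4.42 ± 1.18 in the CD31 sort, and Zbp1, a sensor of Z-form nucleic acids, by 5.73 ± 0.83 and 2.89 ± 0.71; Irf8 and Oas3 also rose in both. For Bst2, which tethers budding virus, both rises and their difference were called (1.45 ± 0.44, adjusted p 0.0473, and 0.12 with the mouse as a block).

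**Figure D3:**
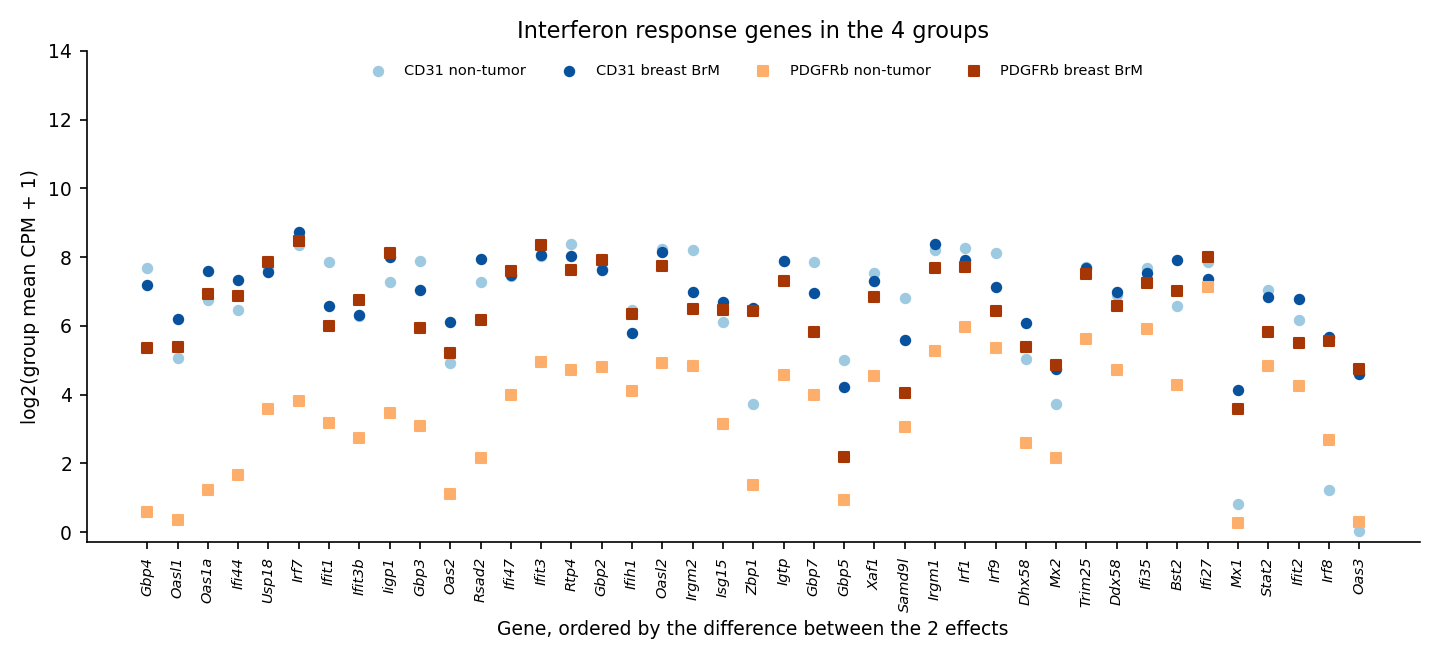
log2(group mean CPM + 1) of 41 interferon response genes in the 4 groups, ordered by the difference between the PDGFRb and the CD31 effect. PDGFRb non-tumor values are the lowest for most genes, and of the 42 genes of the list 37 rose in the PDGFRb sort against 5 in the CD31 sort.

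The MHC class I pathway rose in the PDGFRb sort as well. Of 16 members, 15 rose there (12%) and 2 in the CD31 sort (12.1%), and 8 differed between the sorts, all with the higher effect in the PDGFRb sort (2.75%; 5 with the mouse as a block, 12 without the PDGFRb breast library of mouse 51950). Class I heavy chain genes, like the Ifit and Oas families, have near-identical copies between which the counting could split reads, so the values of single members are uncertain. H2-D1, a classical heavy chain, was at 501, 515, 281, 515 and 495 CPM in PDGFRb non-tumor and 1922, 5198, 3541 and 6292 in PDGFRb breast libraries. CD31 libraries had 4886, 3356, 3918, 4055 and 4056 CPM without tumor and 4584, 4634, 4376, 6876 and 7908 with it. The rise was 9.18-fold in the PDGFRb sort, the CD31 groups overlapped, and the difference between the effects was 2.71 ± 0.38 (adjusted p = 2.08e-04). B2m, the light chain of every class I complex, went from 172, 424, 132, 253 and 222 to 1495, 2157, 1529.8 and 3072 CPM in the PDGFRb sort (3.10 ± 0.32) and had a CD31 effect of 0.59 ± 0.29 that was not called. Tapbp, which holds empty class I molecules at the peptide transporter, rose by 1.83 ± 0.25 in the PDGFRb sort against -0.22 ± 0.23 in the CD31 sort (adjusted p of the difference 9.79e-04). The immunoproteasome subunits Psmb8 and Psmb9 rose by 3.92 ± 0.41 and 3.14 ± 0.58, and Nlrc5, the class I transactivator, by 6.20 ± 1.18. The difference for Nlrc5 was not called with the mouse as a block (adjusted p 0.273), nor that for Psmb9 (0.084). The peptide transporter genes Tap1 and Tap2 rose in the PDGFRb sort (2.91 ± 0.69 and 1.18 ± 0.41) without a called difference.

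In breast BrM the PDGFRb levels of both lists lay nearer to those of the CD31 sort. On log2(mean CPM + 1), the median gap between the PDGFRb and the CD31 sort for the interferon genes was -3.04 in non-tumor brain and -0.47 in breast BrM, and all 42 gaps were narrower in breast BrM. For MHC class I the median gap went from -1.95 to -0.38, with all 16 narrower. Over all genes 53% of gaps were narrower in breast BrM, and over the 1319 genes that differed 75.7%. This measure was chosen after the values were seen and carries no test. Microglia and macrophage markers rose beside these lists in the PDGFRb sort, 7 of 17 with a call (12%), while Ptprc stayed at or under 7.55 CPM. Their sums were 302, 177, 1570 and 313 CPM in breast libraries, by far the highest in mouse 52865, against 46 to 171 CPM without tumor. The part of such cells in the 2 lists was not tested. With the epithelial marker level as a covariate, 26 interferon and 7 MHC class I genes had a called difference, all higher in the PDGFRb sort. Epithelial marker sums were higher in every breast BrM library than in every non-tumor one, so this covariate nearly follows the state. Calls kept or lost with it, here and below, do not measure the part of epithelial cells.

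PDGFRb-specific rises were also found among matrix, immune checkpoint and early response genes. Fn1, fibronectin, was at 38.7, 51.6, 27, 57.4 and 82.6 CPM in PDGFRb non-tumor and 1586, 1675, 1347 and 604 in PDGFRb breast libraries. CD31 libraries had 2272, 1849.9, 2535, 2030.4 and 2279 CPM without tumor and 2393, 3028, 1038, 1426 and 2076 with it, overlapping. The PDGFRb rise was 25.3-fold, and the difference between the effects was 4.80 ± 0.47 (adjusted p = 4.77e-06). Of 32 interstitial matrix genes, 20 rose in the PDGFRb sort (12%) and 12 in the other (12.1%), and 2 fell in the PDGFRb sort (8.16%). The higher effect was in the PDGFRb sort for 5 (2.75%) and in the CD31 sort for 3 (4.74%). With Fn1, the 5 were Col3a1 (3.57 ± 0.71) and Col5a1 (3.66 ± 0.84), both fibrillar collagen chains, the microfibril gene Fbn1 (4.98 ± 0.74) and the collagen cross-linker Loxl2 (2.50 ± 0.71). The last was not called with the mouse as a block (adjusted p 0.17).

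Ly6e, a GPI-anchored interferon-inducible protein that the endothelial core list holds, rose from 51.7, 237, 53.9, 57.3 and 99.2 to 948, 2212, 3360.1 and 4907 CPM in the PDGFRb sort with no overlap. CD31 libraries had 4434, 5205, 4233, 5348 and 4919.5 CPM without tumor and 4197, 3619.8, 3790.3, 4833 and 4077 with it, and the difference between the effects was 5.07 ± 0.59 (adjusted p = 3.51e-05). Pglyrp1, a secreted protein that binds bacterial peptidoglycan, rose from 0.908, 13.6, 2.75, 3.13 and 2.33 to 50.4, 71.5, 299 and 205 CPM in the PDGFRb sort and did not pass the test in the CD31 sort (-0.94 ± 0.59), and the difference between the effects was 6.05 ± 0.90 (adjusted p = 3.7e-04). Sh3tc2, an endosomal adaptor known from Schwann cells, had 0, 10.3, 17.6 and 19.7 CPM in PDGFRb breast libraries against at most 0.656 in PDGFRb non-tumor ones, and its difference of 6.0 ± 1.29 (adjusted p 0.00744) was not called with the mouse as a block (0.174).

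Among 16 immune checkpoint genes, 5 rose in each sort (12.1% in CD31 and 12% in PDGFRb) and 2 fell in the PDGFRb sort (8.16%). The higher effect was in the PDGFRb sort for 2 (2.75%) and in the CD31 sort for 4 (4.74%). Cd274, which encodes the ligand PD-L1, was at 2.24, 1.36, 0.0874, 1.29 and 1.15 CPM in PDGFRb non-tumor and 4, 20.1, 7.79 and 27.1 in PDGFRb breast libraries. CD31 libraries had 61.2, 73.8, 43.6, 65.5 and 52.1 CPM without tumor and 20.3, 34, 15.4, 62.3 and 52.7 with it, which overlapped. The PDGFRb rise was 12.1-fold and the difference between the effects was 4.28 ± 0.88 (adjusted p = 0.00545). Lgals9, galectin-9, rose in both sorts, by 3.01 ± 0.27 in the PDGFRb and 0.80 ± 0.24 in the CD31 sort, and the rises differed (2.21 ± 0.35, adjusted p 7.48e-04). Cd276, which encodes B7-H3, went the other way. CD31 non-tumor libraries held 1 count of it in all and CD31 breast libraries 22.6, 9.96, 9.37, 20.5 and 27.5 CPM, a ratio of 1680-fold (95% counting interval 300 to 66300). In the PDGFRb sort it rose 9.81-fold, from 4.54, 9.04, 11.1, 3.3 and 6.88 to 137, 76.5, 16.2 and 43.9 CPM, and the difference was called (adjusted p 7.96e-04).

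Of 22 immediate early genes, 7 rose in the PDGFRb sort (12%) and none fell, while 2 rose (12.1%) and 4 fell (4.38%) in the CD31 sort. The difference was called for 7, of which 6 were higher in the PDGFRb sort (2.75%) and 3 held with the mouse as a block. Klf6, a zinc finger factor, was at 187, 130.1, 88.4, 158 and 160.1 CPM in PDGFRb non-tumor and 1133, 465, 534 and 807 in PDGFRb breast libraries, which did not overlap, and the difference between the effects was 2.85 ± 0.39 (adjusted p = 1.75e-04). Ier2 rose from 512, 451, 254, 423 and 293 to 2558, 802, 948 and 941 CPM with the highest value in mouse 51950 (2.61 ± 0.43 for the difference), and Ier3 from 106, 106, 54.1, 122 and 86.4 to 390.0, 448, 290.3 and 391 CPM (2.09 ± 0.47). Fos and Egr1, also in this list, had no call in either sort (0.04 ± 0.32 and 0.69 ± 0.42 in the PDGFRb sort). The part of tissue handling in the changes of this list was not tested.

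Proliferation genes rose in the CD31 sort. Of 36 tested, 28 rose in the CD31 sort (12.1%) and 7 in the other (12%), none fell in either, and 21 had the higher effect in the CD31 sort (4.74%; 10 with the mouse as a block). The median effect was 5.45 in the CD31 sort and 0.98 in the other. E2f1, at 0 counts in all CD31 non-tumor libraries, lies above that median at its bound too (at least 439-fold). Ube2c, the ubiquitin-conjugating enzyme of the anaphase-promoting complex, was at 0.216, 0.249, 0.399, 0.524 and 0.46 CPM in CD31 non-tumor and 76.5, 64.4, 73.7, 92.9 and 56.2 in CD31 breast libraries. PDGFRb libraries already had 23.7, 8.54, 56.9, 38 and 12.3 CPM without tumor, and 35.4, 56.3, 55.8 and 98.8 with it. The CD31 rise was 193-fold with no overlap, the PDGFRb groups overlapped, and the difference between the effects was -6.45 ± 0.72 (adjusted p = 2.4e-05). Birc5, survivin, and Ccnb2, a mitotic cyclin, rose in both sorts but more in the CD31 sort, by 8.63 ± 0.76 against 1.90 ± 0.56 and by 8.86 ± 0.73 against 3.91 ± 0.57 (adjusted p of the differences 1.25e-04 and 0.00116). For Ccnb2 the PDGFRb breast library of mouse 51950 was highest, at 309.5 CPM against 77 to 95.8 CPM in the others. Melk, a cell cycle kinase, had 1 count in all CD31 non-tumor libraries and 17.5, 11.8, 16.5, 26.5 and 9.84 CPM in CD31 breast ones, a ratio of 1460-fold (95% counting interval 262 to 57800), while PDGFRb levels ran from 0.552 to 20.5 CPM without tumor and 0 to 16.4 with it. Of the replication genes in the list, Cdc6, which loads the helicase, rose in the CD31 sort from 0, 0, 0.228, 0.233 and 0.0511 to 30.5, 4.24, 12.9, 25 and 15.6 CPM without overlap, and its PDGFRb effect was not called (adjusted p of the difference 0.0158). The helicase subunits Mcm5 and Mcm6 rose there by 2.73 ± 0.49 and 1.36 ± 0.40, and Mcm6 also rose in the PDGFRb sort (1.60 ± 0.42). Mcm2, Mcm3, Mcm4, Mcm7, Pcna, Ccne2 and Gins2 passed no test, with CD31 effects of 0.44 to 1.66. With the epithelial marker level as a covariate, 21 proliferation genes had a called difference. Epithelial markers, which rose in both sorts, stand beside this rise: Krt8, Cdh1 and Cldn4 rose in the CD31 sort by 9.18 ± 1.22, 8.49 ± 1.49 and 9.77 ± 2.16. The part of epithelial cells in the proliferation genes was not tested.

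**Figure D4:**
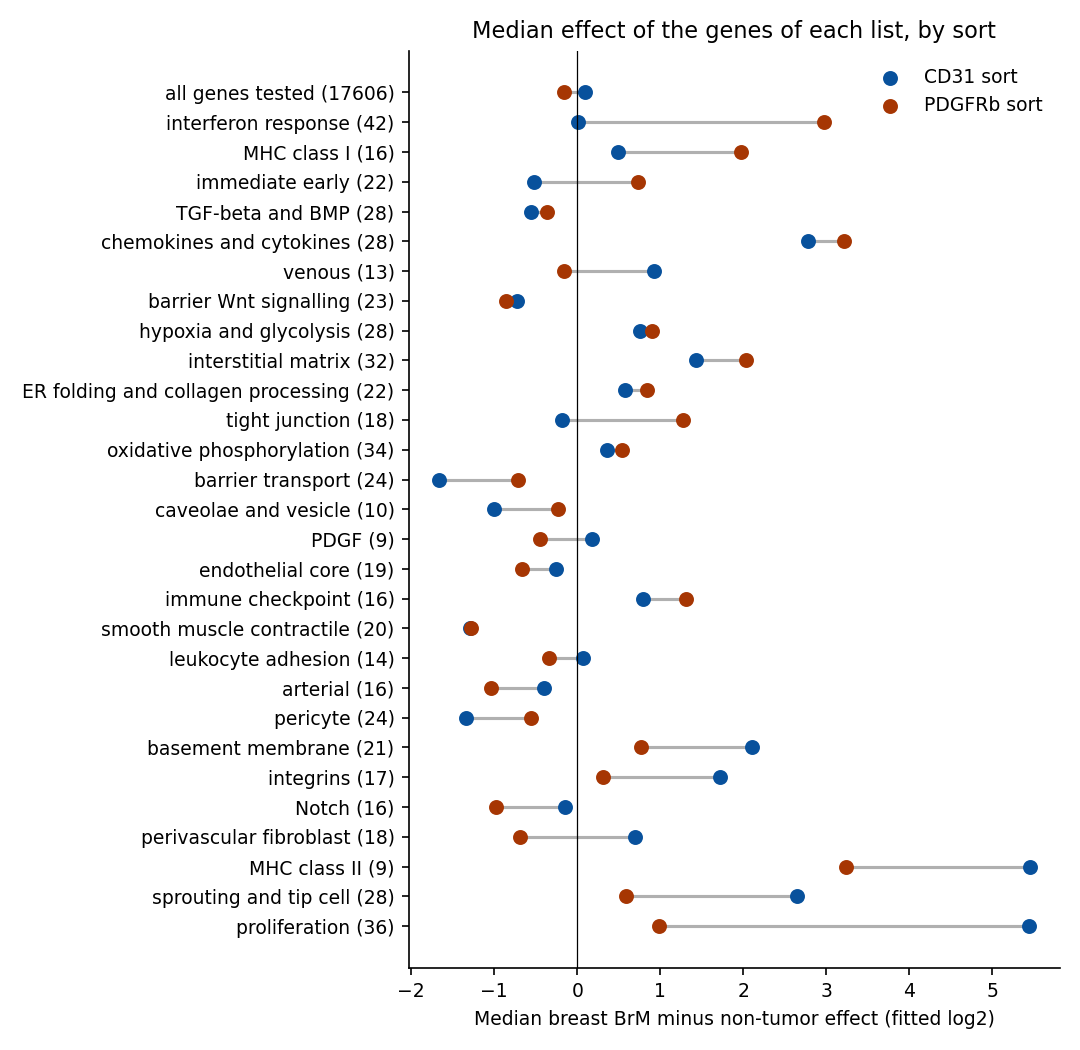
Median fitted log2 effect of breast BrM in the CD31 sort (blue) and the PDGFRb sort (brown) for the tested genes of 28 pathway lists, with the number of genes in brackets and the list ordered by its median difference. Interferon response (0.01 and 2.98) and proliferation (5.45 and 0.98) stand at the ends, and all genes tested (0.09 and -0.16) at the top.

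Of 28 sprouting and tip cell genes, 17 rose in the CD31 sort (12.1%) and 8 in the other (12%), and 1 fell in each (4.38% and 8.16%). The higher effect was in the CD31 sort for 9 (4.74%) and in the PDGFRb sort for 2 (2.75%). With the mouse as a block these counts were 7 and 2. Mcam (CD146), an adhesion molecule that also stands in the pericyte list, was at 31.1, 22.3, 36.3, 25.1 and 38.6 CPM in CD31 non-tumor and 635, 818, 1090.0, 506 and 1341 in CD31 breast libraries. PDGFRb libraries had 1178, 999, 428, 777 and 887 CPM without tumor and 759.7, 1199.8, 1260.4 and 649.9 with it. The CD31 rise was 28.6-fold, the PDGFRb effect of 0.18 ± 0.31 was not called, and the difference between the effects was -4.66 ± 0.45 (adjusted p = 4.17e-06). Trp53i11, which is enriched in tip cells, rose from 43.1, 35.9, 23.4, 35.5 and 38.8 to 915, 1049, 958, 799 and 1663 CPM in the CD31 sort, with a PDGFRb effect of -1.27 ± 0.50 that was not called. Angpt2, the antagonist ligand of the endothelial receptor Tie2, rose by 3.51 ± 0.39 in the CD31 sort against -0.30 ± 0.37 in the PDGFRb sort (adjusted p of the difference 2.15e-04). Apln, the tip cell ligand of the receptor Aplnr, went in opposite directions, 5.43 ± 0.81 in the CD31 and -3.98 ± 0.89 in the PDGFRb sort. Plaur, the urokinase receptor, was one of the 2 with the higher PDGFRb effect (2.99 ± 0.53, adjusted p 0.00158).

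Flt1, the decoy and signalling receptor of VEGF and the other of those 2, was an opposite gene. It stood at 4589.8, 4919, 4345, 4379 and 4460.4 CPM in CD31 non-tumor and 1531, 2541, 1711, 1178 and 1942 in CD31 breast libraries, all lower. In the PDGFRb sort it went from 28.8, 37.9, 28.4, 69.6 and 48.3 to 366, 322, 201 and 152 CPM, all higher. The log2 effects were -1.35 ± 0.27 and 2.61 ± 0.29, and the difference between the effects was 3.96 ± 0.40 (adjusted p = 5.37e-06). Of 19 endothelial core genes, 0 rose (12.1%) and 3 fell (4.38%) in the CD31 sort, and 4 rose (12%) and 7 fell (8.16%) in the PDGFRb sort. The higher effect was in the PDGFRb sort for 3 (2.75%), Flt1, Ly6e and Tie1. It was in the CD31 sort for 1 (4.74%), the phosphatase gene Ptprb (difference -2.65 ± 0.63, adjusted p 0.0129). Tie1, an endothelial receptor tyrosine kinase, was at 9.2, 8.64, 3.5, 5.53 and 9.86 CPM in PDGFRb non-tumor and 170.4, 31.8, 53.4 and 13.5 in PDGFRb breast libraries (difference 3.10 ± 0.67, adjusted p 0.00747). The Tie1 difference was not called with the mouse as a random block in limma-voom (adjusted p 0.232). Of the 8 endothelial markers tested, 3 rose in the PDGFRb sort (12%), Flt1, Tie1 and Cdh5, and 1 fell (8.16%), Cldn5. Cdh5, VE-cadherin, was at 76, 7.49, 1.56 and 2.99 CPM in PDGFRb breast libraries, highest in mouse 51950, against 1.27 to 5.42 without tumor. Pecam1, Egfl7, Erg and Emcn were not called. The levels in those libraries were 0.48 to 7.55 (Pecam1), 0.32 to 2.92 (Cldn5), 0.48 to 3.99 (Egfl7), 0 to 0.379 (Erg) and 3.36 to 169 CPM (Emcn, against 70.0 to 135 without tumor). The summed endothelial marker level was 231 to 617 CPM there against 114 to 217 in PDGFRb non-tumor libraries, and Flt1 made up 152 to 366 CPM of it. The part of endothelial cells in these results was not tested.

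**Figure D5:**
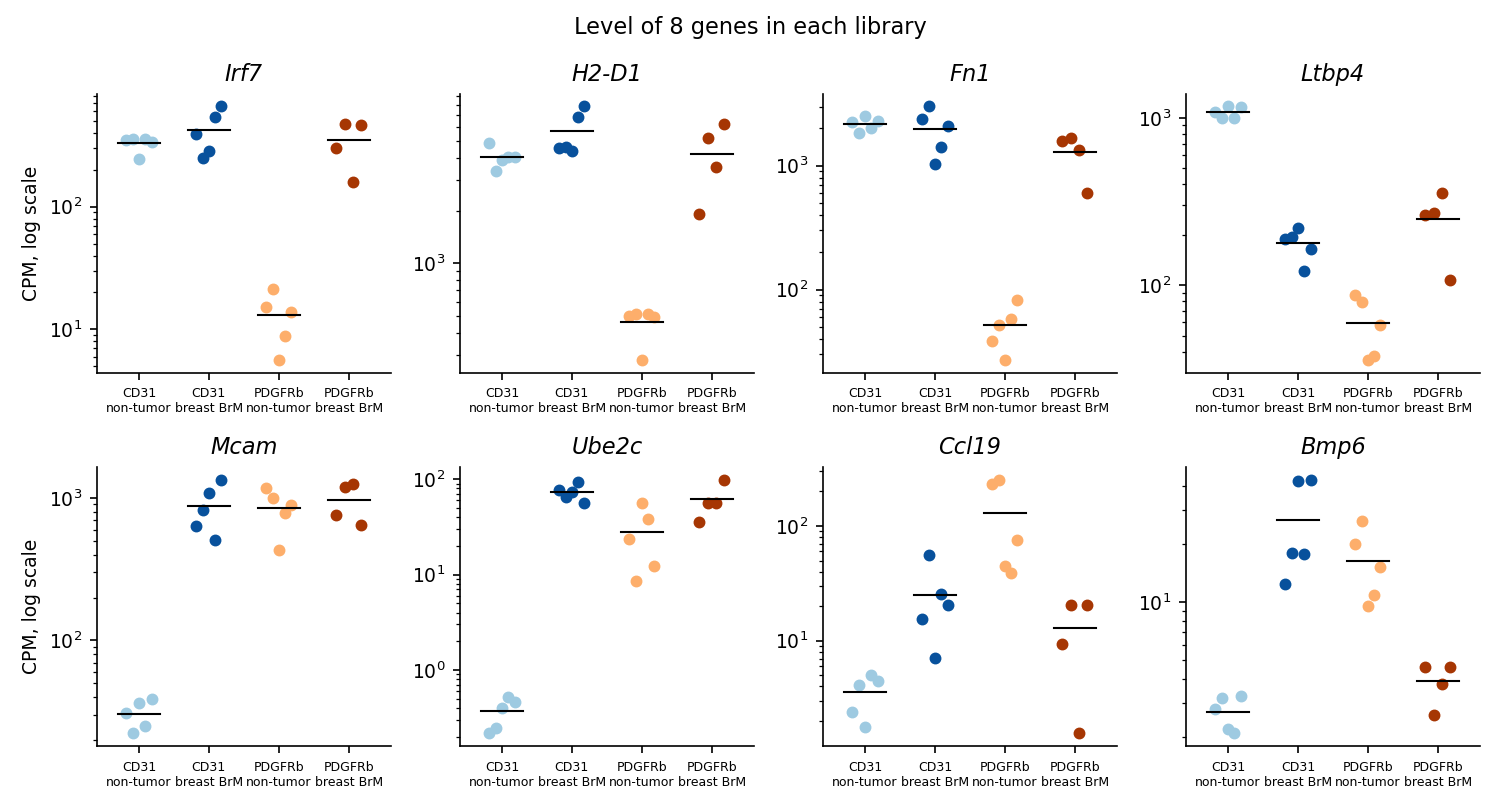
CPM (log scale) of 8 genes in each of the 19 libraries, with a bar at the group mean. Irf7, H2-D1 and Fn1 rose in the PDGFRb sort to near the CD31 level, Mcam and Ube2c rose in the CD31 sort to near the PDGFRb level, and Ltbp4, Ccl19 and Bmp6 moved in opposite directions.

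In the basement membrane, shared by both cell types, 13 of 21 genes rose in the CD31 sort (12.1%) and 9 in the other (12%), and 2 and 3 fell (4.38% and 8.16%). The higher effect was in the CD31 sort for 6 (4.74%) and in the PDGFRb sort for 1 (2.75%). With the mouse as a block these counts were 3 and 0. The main collagen IV chains Col4a1 and Col4a2 rose in both sorts, by 2.26 ± 0.30 and 2.62 ± 0.35 in the CD31 and 2.32 ± 0.31 and 2.19 ± 0.35 in the PDGFRb sort. Their differences, 0.06 ± 0.41 and -0.43 ± 0.48, were not called (adjusted p 0.987 and 0.714). Lamb1, the laminin beta-1 chain, was at 3.63, 2.31, 3.25, 4.31 and 4.95 CPM in CD31 non-tumor and 422, 362, 691, 333 and 825 in CD31 breast libraries. It rose 142-fold there and 4.58-fold in the PDGFRb sort (59.9, 103, 38.6, 131 and 126 to 831, 357, 298 and 193 CPM), and the difference between the effects was -4.96 ± 0.61 (adjusted p = 5.54e-05). Col15a1, a collagen of the outer basement membrane, rose by 7.69 ± 0.69 and 3.08 ± 0.56, a difference called at 0.00145 and not with the mouse as a block (0.0568). Col4a5, a minor collagen IV chain, rose from 0, 0, 0, 0 and 0.204 to 28.5, 1.22, 2.37, 58.4 and 2.34 CPM in the CD31 sort, highest in mice 51950 and 53072. PDGFRb libraries had 80.3, 70.8, 22.1, 74.6 and 77.6 CPM without tumor and 0.64, 34.5, 42.9 and 61.5 with it, and the difference (0.0038) was not called with the block (0.0913).

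The next 4 genes rose in the CD31 sort and were measured in the PDGFRb sort in both states. Tgfbi, an extracellular matrix protein induced by TGF-beta, was at 0, 0.0623, 0.228, 0.117 and 0 CPM in CD31 non-tumor and 85.2, 61.9, 66.8, 33.1 and 129 in CD31 breast libraries, with no overlap. PDGFRb libraries had 116, 177, 94.6, 71.1 and 72.6 CPM without tumor and 384, 166, 217 and 60.5 with it, and the difference between the effects was -8.81 ± 0.91 (adjusted p = 8.09e-06). Mmp14, a membrane-bound matrix metalloproteinase, rose by 7.25 ± 0.56 in the CD31 and 1.76 ± 0.45 in the PDGFRb sort (adjusted p of the difference 5.78e-05). F3, tissue factor, which starts coagulation, rose from 0, 0.561, 0.114, 0 and 0 to 30.7, 5.47, 9.79, 138 and 3.28 CPM in the CD31 sort, with the highest values in the 2 breast libraries that also had the highest epithelial marker sums, mice 51950 and 53072. The part of epithelial cells in this rise was not tested. PDGFRb levels of F3 were 68.1 to 332 CPM without tumor and 67.4 to 193 with it, and the difference between the effects was -8.90 ± 1.52 (adjusted p = 0.00126). Oaf, with 1 count in all CD31 non-tumor libraries, was at 11.6, 24.2, 21, 4.7 and 19.8 CPM in CD31 breast ones, a ratio of 1410-fold (95% counting interval 252 to 55600), and at 16 to 22.8 CPM without tumor and 10.5 to 31.5 with it in the PDGFRb sort.

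Of 24 pericyte genes, 7 rose (12.1%) and 7 fell (4.38%) in the CD31 sort, and none rose and 5 fell (8.16%) in the PDGFRb sort. The higher effect was in the CD31 sort for 7 (4.74%) and in the PDGFRb sort for 1 (2.75%). These counts were 4 and 1 with the mouse as a block, and 4 and 0 with it as a random block in limma-voom. With all 6 groups of the series in the fit they were 3 and 0. Abcc9, the regulatory subunit of a pericyte potassium channel, was at 0.487, 0.374, 0.228, 0.757 and 1.12 CPM in CD31 non-tumor and 32.2, 27.3, 15.8, 27.1 and 38.3 in CD31 breast libraries. PDGFRb libraries had 405, 632, 414, 966 and 785 CPM without tumor and 284, 573, 381 and 257 with it, all above every CD31 library. For Abcc9 the difference between the effects was -6.32 ± 0.56 (adjusted p = 2.99e-06). Art3, a pericyte-enriched ADP-ribosyltransferase family member, rose by 3.53 ± 0.38 in the CD31 sort against -0.35 ± 0.36 in the PDGFRb sort (difference -3.88 ± 0.52, adjusted p 1.35e-04). With all 6 groups of the series in the fit this difference was not called (0.116). Rgs5, which shortens G protein signals in pericytes, was the 1 in the other direction: in the CD31 sort it fell, with 9.28 to 24 CPM without tumor and 1.25 to 3.1 with it, and it had a PDGFRb effect of 0.09 ± 0.30 (difference 2.96 ± 0.42, adjusted p 2.39e-04, and adjusted p 0.149 with all 6 groups). Pdgfrb itself passed no test in CD31 libraries (-1.60 ± 0.76). Of the 8 mural markers, 2 rose (12.1%) and 4 fell (4.38%) in the CD31 sort. Their summed level there was 26.4 to 51.5 CPM in breast BrM against 19 to 102 without tumor. Abcc9, one of the 8, made up 15.8 to 38.3 CPM of the breast sums.

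Barrier transport genes held several of the CD31-specific falls. Of 24, 12 fell (4.38%) and 1 rose (12.1%) in the CD31 sort, and 8 fell (8.16%) and 3 rose (12%, near the share over all genes) in the PDGFRb sort. A higher effect was called in the PDGFRb sort for 6 (2.75%) and in the CD31 sort for none (3 with the mouse as a block). Slc6a6, the taurine transporter, fell in the CD31 sort from 2860.1, 3376, 3499, 2586 and 3330.1 to 315, 200.1, 169, 219 and 168 CPM. In the PDGFRb sort it was at 35.2, 22.7, 38.5, 39.8 and 41 CPM without tumor and 0.48, 78, 75.6 and 84.6 in breast BrM, with mouse 51950 near 0 and the other 3 above all non-tumor libraries. The difference was 4.63 ± 0.86 (adjusted p 0.0025, and 0.187 with the mouse as a block). Abcg2, an efflux pump for drugs, fell from 1598, 1514, 1627, 1558 and 1586 to 611, 513, 476, 365 and 476 CPM in the CD31 sort and did not pass the test in the PDGFRb sort (0.30 ± 0.28), and the difference between the effects was 2.00 ± 0.39 (adjusted p = 0.00387). Slc2a1, the glucose transporter GLUT1, fell in the CD31 sort (-1.42 ± 0.42) and had a PDGFRb effect of 0.65 ± 0.44 (adjusted p of the difference 0.0418). Abcb1a, the P-glycoprotein pump, fell in the CD31 sort, with 1114 to 1264 CPM without tumor and 140.4 to 262 with it, but at PDGFRb levels of at most 8.1 CPM its difference was not called (0.102).

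Itih5, which stabilises hyaluronan in the matrix, fell in the CD31 sort from 1098, 1299, 1141, 1125 and 1177 to 63.9, 230.4, 52.9, 83.7 and 32.6 CPM and in the PDGFRb sort was at 339, 364, 211, 354 and 473 CPM without tumor and 655, 466, 356 and 152 with it, which overlapped. For Itih5 the difference between the effects was 3.88 ± 0.62 (adjusted p = 6.77e-04). Col14a1, a collagen that binds along fibrils, fell from 49.7, 41.4, 29, 26.6 and 20.3 to 0.0988, 2.12, 0, 0.866 and 0.26 CPM in the CD31 sort, and PDGFRb libraries had 8.83 to 31.2 CPM without tumor and 21 to 40.6 with it (difference 6.47 ± 1.08, adjusted p 0.00105). Pakap, whose gene model overlaps others and is uncertain, was at 192, 29.2, 102, 0 and 0 CPM in CD31 non-tumor libraries and at 0 in all CD31 breast ones. The fall was at least 1850-fold against 3 counts over the group, yet 2 non-tumor libraries were at 0 too, and the difference (adjusted p 0.0137) was not called with the mouse as a block (0.447), with no low count filter (0.054) or with the date as a covariate (0.175).

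Of 18 tight junction genes, 5 rose (12.1%) and 3 fell (4.38%) in the CD31 sort, and 7 rose (12%) and 5 fell (8.16%) in the PDGFRb sort. The difference was called for 6, with the higher effect in the PDGFRb sort for 4 (2.75%) and in the CD31 sort for 2 (4.74%), and 1 of the 6 was called with the mouse as a block. Ocln, occludin, fell in the CD31 sort from 930.2, 861, 1027, 851 and 970.1 to 171, 91, 84.3, 145 and 96.2 CPM, and in the PDGFRb sort stood at 7.99, 1.81, 9.14, 15.7 and 10.2 CPM without tumor and 0.16, 29.7, 30.5 and 52.1 with it. Lsr, angulin-1 of tricellular junctions, went from 9.56, 10.7, 6.25, 11.7 and 14 to 0.32, 49.6, 77.4 and 147 CPM in the PDGFRb sort and had 1135 to 1466 CPM without tumor and 279 to 557 with it in the CD31 sort. Both have epithelial roles too. In the PDGFRb breast libraries both stood in the order of the epithelial marker sums. The lowest was that of mouse 51950, where 50.3% of tested genes were at 0. The part of epithelial cells in Ocln and Lsr was not tested. The differences of 4.63 ± 0.95 and 4.50 ± 0.94 (adjusted p 0.00517 and 0.00579) were not called with the mouse as a block (0.188 and 0.27). They were 4.20 and 3.96 with the epithelial marker level as a covariate, both called at adjusted p 0.0147 and 0.0172. Jam3, junctional adhesion molecule C, was opposite: it rose from 11.4, 9.84, 12.7, 15 and 10.4 to 38.2, 25.3, 57.4, 23.6 and 50.1 CPM in the CD31 sort and fell from 199.8, 223, 131, 219 and 179.5 to 175, 59.1, 71.1 and 27.8 CPM in the PDGFRb sort, where mouse 51950 lay within the non-tumor range (difference -2.91 ± 0.56, adjusted p 0.0032, and adjusted p 0.0618 with all 6 groups in the fit). Cldn5, the main claudin of the barrier, had a CD31 effect of -0.57 ± 0.44 that was not called.

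Opposite genes that rose in the PDGFRb and fell in the CD31 sort included Tfrc and Ltbp4. Tfrc, the transferrin receptor, fell from 431, 741, 594, 572 and 552 to 79.9, 97.1, 52, 136 and 52.9 CPM in the CD31 sort and rose from 27.4, 31.8, 53.7, 29.7 and 48 to 345, 47.6, 85.4 and 107 CPM in the PDGFRb sort, highest in mouse 51950. The PDGFRb groups overlapped at 47.6 CPM in mouse 52599, and the difference between the effects was 4.73 ± 0.61 (adjusted p = 8.61e-05). Ltbp4, which anchors latent TGF-beta in the matrix, fell from 1081, 1001, 1173, 992 and 1159 to 190.0, 195, 219.7, 121 and 164 CPM and rose from 87.2, 79.6, 35.8, 38 and 58.3 to 261, 271, 354 and 107 CPM, with no overlap in either sort. Its log2 effects were -2.60 ± 0.30 in the CD31 and 2.06 ± 0.30 in the PDGFRb sort (difference 4.66 ± 0.42, adjusted p 2.99e-06). Among 28 TGF-beta and BMP genes, 4 rose (12.1%, near the share over all genes) and 8 fell (4.38%) in the CD31 sort, 5 rose (12%) and 4 fell (8.16%) in the PDGFRb sort, and 4 had the higher (2.75%) and 4 the lower PDGFRb effect (4.74%). Acvrl1 (ALK1), the endothelial receptor of BMP9, was opposite as well (-0.90 ± 0.26 and 1.27 ± 0.27). The ligand Tgfb2 fell by 2.04 ± 0.27 in the CD31 sort with a PDGFRb effect of 0.77 ± 0.27 (adjusted p 0.0534), and the difference between the effects was 2.81 ± 0.38 (adjusted p = 1.35e-04).

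The 4 largest changes of this class, ranked by the smaller of the 2 effects, were those of Pllp, Rab11fip1, Eps8l2 and Elovl7, whose PDGFRb level without tumor was at most 6.57 CPM. Pllp, the tetraspan protein plasmolipin, fell from 502, 444, 499, 442 and 435 to 19.1, 16, 11, 17.9 and 7.97 CPM in the CD31 sort, and PDGFRb libraries had 1.27, 0, 1.01, 1.97 and 1.53 CPM without tumor and 0, 16.8, 27.3 and 3.06 with it. Rab11fip1, an effector of Rab11 in recycling endosomes, had 151 to 215 CPM without tumor and 9.27 to 45.3 with it in the CD31 sort and PDGFRb breast levels of 0.16, 9.51, 19.2 and 22.1 CPM. Eps8l2, an actin regulator, had 0, 24.8, 37.9 and 93.2 CPM in PDGFRb breast libraries, and Elovl7, a fatty acid elongase, 0.16, 9.03, 22.9 and 33. In mouse 51950 all 4 were at or under 0.16 CPM, within or below the non-tumor range. Their differences were 8.37 ± 1.22, 7.19 ± 1.23, 6.86 ± 1.29 and 4.86 ± 0.94. None was called with the mouse as a block (adjusted p 0.0822, 0.0937, 0.111 and 0.158). Rab11fip1, Eps8l2 and Elovl7, like Sh3tc2, stood in the order of the epithelial marker sums in the PDGFRb breast libraries. With that level as a covariate the differences of Pllp, Rab11fip1, Eps8l2 and Elovl7 were 8.29, 6.97, 6.17 and 4.46, all called (adjusted p 5.81e-04, 0.00378, 0.00516 and 0.0101). The part of epithelial cells in them was not tested.

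In the reverse class, Ccl19, a chemokine that attracts Ccr7-bearing lymphocytes and dendritic cells, rose in the CD31 sort and fell in the PDGFRb sort. CD31 libraries had 2.38, 4.11, 1.77, 5.07 and 4.49 CPM without tumor and 15.4, 55.7, 7.06, 25.8 and 20.7 in breast BrM, and PDGFRb libraries 234, 253, 44.6, 38.6 and 76.2 CPM without tumor and 9.44, 20.4, 1.56 and 20.4 with it. Neither pair of groups overlapped, and the difference between the effects was -6.12 ± 1.06 (adjusted p = 0.00135). Bmp6, a BMP ligand, rose from 2.81, 3.18, 2.22, 2.1 and 3.27 to 12.4, 18, 42.2, 17.8 and 42.9 CPM in the CD31 sort and fell from 19.9, 26.2, 9.57, 10.9 and 15.1 to 4.64, 2.6, 3.79 and 4.63 CPM in the PDGFRb sort, again without overlap (difference -5.35 ± 0.68, adjusted p 6.89e-05). Crmp1, an adaptor of semaphorin signalling in neurons, rose from 0.487, 0.0623, 0.797, 0.99 and 0 to 20.6, 14.7, 6.76, 8.84 and 20.6 CPM in the CD31 sort, while the PDGFRb groups, at 49.7, 0.0502, 312, 75.7 and 37.6 CPM without tumor and 0, 9.51, 4.72 and 3.49 with it, overlapped through mouse 54132. Clic6, of the chloride intracellular channel family, and Eva1a, a regulator of autophagy, had PDGFRb breast levels of 0 to 1.33 and 0 to 2.28 CPM against 0.151 to 32.6 and 2.66 to 34.2 CPM without tumor. The differences of -9.32 ± 1.94, -8.47 ± 1.80 and -7.30 ± 1.33 were not called with the mouse as a block (adjusted p 0.0568, 0.123 and 0.0672).

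The 4 PDGFRb-specific falls that the naming rule picked were Gpm6a, Cttnbp2, Plxna4 and Syt15. Gpm6a, a neuronal membrane glycoprotein, fell from 31.7, 46, 408, 246 and 296 to 1.12, 4.94, 14.2 and 6.98 CPM in the PDGFRb sort. Cttnbp2, a cortactin-binding protein of dendritic spines, fell from 26.9, 8.24, 39.6, 28.3 and 29.3 to 0, 0.319, 0.379 and 3.56 CPM there, and the CD31 sort had 27 to 38.1 CPM without tumor and 37.2 to 69.4 with it (difference -5.26 ± 0.98, adjusted p 0.00251). Plxna4, a semaphorin receptor subunit, fell by 4.18 ± 0.91 and Syt15, of the synaptotagmin family, by 6.19 ± 0.95. The differences for Gpm6a (-4.19 ± 1.0), Plxna4 (-4.42 ± 1.12) and Syt15 (-5.80 ± 1.10) were not called with the mouse as a block (adjusted p 0.271, 0.268 and 0.0909). Plxna4 was not called either with the date as a covariate or without mouse 54135, nor was Gpm6a without that mouse (adjusted p 0.0917, 0.0847 and 0.0556). In the PDGFRb sort 7 of 12 astrocyte and 6 of 10 neuron markers tested also fell (8.16%). The astrocyte sum was 1720 to 6880 CPM without tumor and 1030 to 1410 with it. The neuron sum was 61.7 to 1440 CPM (median 244) without tumor and 174 to 627 CPM (median 325) with it, of which Meg3, not called, made up 154 to 627 CPM with tumor, while Dlx1, Gad2 and Snap25 were at 1, 0 and 0 counts in all PDGFRb breast libraries. The part of these cells in the class was not tested.

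Concordant genes changed in 1 direction in both sorts. Among them were epithelial markers. Of 19 tested, 18 rose in each sort (12.1% in CD31 and 12% in PDGFRb), and none had a called difference (7.49%). Rab25, a small GTPase of epithelial cells, had 18.3, 5.31, 8.78, 39.2 and 9.01 CPM in CD31 breast and 0, 26.3, 53.8 and 83.7 in PDGFRb breast libraries. CD31 non-tumor libraries held 2 counts of it, a ratio of 729-fold (95% counting interval 201 to 6020). Sectm1b was at 9.14, 2.61, 2.49, 49.3 and 4.11 CPM in CD31 breast and 0, 12.6, 0.716 and 114 in PDGFRb breast libraries, at least 397-fold and 1610-fold (95% counting interval 444 to 13300) higher. Ubd, a ubiquitin-like modifier induced by inflammatory cytokines, was at 6.86, 46.4, 2.19, 129 and 123 CPM in CD31 breast and 0, 9.57, 0.842 and 50.6 in PDGFRb breast libraries, at least 526-fold higher than without tumor in the PDGFRb sort. Cxcl9, an interferon-gamma-induced chemokine for T cells, rose by 8.68 ± 1.52 in the CD31 and 9.07 ± 1.59 in the PDGFRb sort (difference 0.39 ± 1.63, adjusted p 0.962). For all 4, mouse 53072 was highest in the PDGFRb sort and mouse 51950 was at 0. With the epithelial marker level as a covariate, 352 genes rose in both sorts in place of 893, and none of these 4 was called in either sort (adjusted p 0.168 to 0.707). Since this covariate nearly follows the state, losses with it are hard to avoid for any gene linked to the state. The part of epithelial cells in them was not tested. With the date in the column headers, whose meaning is not given, as a covariate 494 rose in both, and Sectm1b and, in the CD31 sort, Ubd were not called (0.0701 to 0.101).

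Genes that fell in both sorts included Slc22a8, an organic anion transporter of the barrier, at 1662, 1808, 1333, 1721 and 1696 CPM without tumor and 138, 101, 72.7, 144 and 52.2 with it in the CD31 sort and 403, 731, 367, 857 and 613 CPM without tumor and 0.16, 42, 34 and 23.6 with it in the PDGFRb sort. Neither pair overlapped, and the difference between the effects, -0.55 ± 0.84, was not called (adjusted p 0.822). Lrrn3, a neuronal leucine-rich repeat protein, fell by 4.52 ± 0.60 in the CD31 and 4.66 ± 0.71 in the PDGFRb sort. Ccn3, a matricellular protein, fell by 4.89 ± 1.02 and 5.13 ± 1.14. Ttr, the thyroxine carrier that the choroid plexus makes in large amounts, was at 3.36, 163, 7.4, 52.3 and 119.6 CPM in CD31 non-tumor and 75.5, 63.4, 994, 334 and 452 in PDGFRb non-tumor libraries, and at no more than 2.52 and 7.54 CPM in breast ones. With the epithelial marker level as a covariate, Ttr was called in neither sort (adjusted p 0.0742 and 0.0512) and Ccn3 was not called in the CD31 sort (0.0778). With the header date as a covariate, Ttr was not called in the CD31 sort (adjusted p 0.154). Of the 87 named genes with a called difference, 86 kept its sign within each of the 2 header dates that held all 4 groups, and Cx3cl1 on 1 of them. These genes were chosen with small p or large change in the same libraries, and all breast libraries fall on these dates. The agreement therefore says little about stability.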

How the data were processed

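RNA of sorted cells was made into SMART-Seq HT and Nextera XT libraries, which keep neither strand nor molecular identifiers, per the labels' protocols. The authors deposited expected counts per gene, made with STAR 2.7.9a, RSEM 1.3.3 and mm10 per the submitters' processing notes. The annotation is not given in the sources used here. Of 53647 gene IDs, 52093 matched a symbol. The authors' separately normalized tables of each sort were not used.

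The counts were rounded to whole numbers and groups were taken from the titles. Genes were kept by filterByExpr (17606), scaled by TMM and fitted with edgeR 4.0.16 (R 4.3.3) as 4 group means with robust quasi-likelihood dispersions. Each effect and their difference was tested, with Benjamini-Hochberg adjusted p over all genes and a threshold of 0.05. Errors are standard errors from the F statistic. Alternatives used DESeq2 1.42.0, limma 3.58.1, other filters and covariates. On data simulated for the difference of the effects over 16921 genes, 2, 22, 74 and 100% of genes changed 2, 4, 16 and 64-fold were recovered, and 0.00598% of unchanged genes were called. The changed genes had at least 5 CPM in both sorts and were raised in the PDGFRb breast group alone. Recovery of falls and of lower genes was not measured. Libraries held 7105171 to 23934038 counts. Intervals and floors of 3 counts cover counting error only. The closest replicate pair differed by a chi-square of 16.4 per degree of freedom, and each library was kept as a replicate of its own.

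Both sorts of 9 mice come from the same animal, so the mouse pairs the libraries. Deviations from the group means correlated within mice with r of -0.0814 to 0.248 (consensus 0.0231). In the fit with the mouse as a block, effects within a sort cannot be estimated, and mouse 53142 adds nothing.

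Named genes are those behind the gates, up to 4 per response class measured at 5 CPM or more in both sorts, ranked by size of change (sort-specific ones with an effect within 1, log2, in the other sort), and up to 3 per list with the smallest adjusted p of the difference. Other genes are named from the lists as examples. Of the genes so chosen 1, and of the interferon list 1, counted but not shown, is not reported here. The members and lists were chosen with earlier results of these data known, and which 13 of the 28 pathway lists stand in the results and which 15 among the other observations was chosen after their values were seen.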

Additional observations from a re-analysis of the deposited data

Results flagged for a closer look

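Over 101 named genes in 4 groups, 404 group tests were made by Dixon's 95% criterion on log2(CPM + 1). Chance gives about 5% of tests, a share that does not hold for groups near 0. There 1 count alone can meet the criterion, as for Oaf, Melk and Cd276 in CD31 non-tumor libraries. In 34 of the 404 tests 1 library lay far from the others of its group by this criterion. Values are CPM. In the PDGFRb breast library of mouse 51950 this held for Slc22a8 at 0.16, Col4a5 at 0.64, Slc6a6 at 0.48, Ocln at 0.16, Trp53i11 at 309, Ccnb2 at 309.5, Cx3cl1 at 0.16 and Ier2 at 2558. In the PDGFRb non-tumor library of mouse 54135 this held for Sectm1b at 0.0874, Col4a5 at 22.1, H2-D1 at 281 and Ldha at 406. In the PDGFRb non-tumor library of mouse 54132 this held for Rab25 at 0.502, Slc6a6 at 22.7 and Cttnbp2 at 8.24. In the CD31 non-tumor library of mouse 54135 this held for Slc22a8 at 1333, Pglyrp1 at 966 and Irf7 at 243. In the CD31 non-tumor library of mouse 54132 this held for Oaf at 0.0623, F3 at 0.561 and Cd276 at 0.0623. In the CD31 non-tumor library of mouse 56727 this held for Ubd at 0.233 and Ier3 at 461. In the CD31 non-tumor library of mouse 56740 this held for Melk at 0.0511 and Col4a5 at 0.204. In the PDGFRb non-tumor library of mouse 56740 this held for Gbp4 at 2.03 and Itgam at 0.115. In the CD31 breast library of mouse 52599 this held for Pglyrp1 at 910.2 and Lamc3 at 2.69. The PDGFRb non-tumor library of mouse 56727 stood apart for Cxcl9 at 0.343. The CD31 breast library of mouse 51950 stood apart for Ttr at 2.52. The PDGFRb breast library of mouse 53072 stood apart for Lrrn3 at 1.35. The PDGFRb breast library of mouse 52865 stood apart for Ifit3 at 95.6. The PDGFRb non-tumor library of mouse 53680 stood apart for Cx3cl1 at 17.4.

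For 86 named genes the breast BrM effect differed between the sorts by the test of the difference itself (edgeR, adjusted p under 0.05). The values are log2 differences, PDGFRb minus CD31 effect. Genes that rose in the PDGFRb and fell in the CD31 sort, with the higher PDGFRb effect, had differences of 8.37 (Pllp), 7.19 (Rab11fip1), 6.86 (Eps8l2), 4.86 (Elovl7), 3.96 (Flt1), 4.73 (Tfrc), 1.15 (Ctnnb1) and 4.66 (Ltbp4). Genes that fell in the PDGFRb and rose in the CD31 sort, with the lower PDGFRb effect, had differences of -9.32 (Crmp1), -8.47 (Clic6), -7.30 (Eva1a), -6.12 (Ccl19), -2.91 (Jam3), -2.98 (Cavin3), -9.60 (Efemp1) and -5.35 (Bmp6). CD31-specific risers, with the lower PDGFRb effect, had differences of -9.85 (Oaf), -9.82 (Melk), -9.41 (Col4a5), -8.90 (F3), -4.66 (Mcam), -6.19 (Trp53i11), -2.37 (Gja4), -6.51 (Selp), -8.81 (Tgfbi), -6.32 (Abcc9), -3.88 (Art3), -3.0 (Fbln1), -7.43 (Pdgfc), -4.61 (Nrarp), -6.45 (Ube2c), -5.72 (Aldoc) and -2.95 (Fkbp10). CD31-specific fallers, with the higher PDGFRb effect, had differences of 13.65 (Pakap), 6.47 (Col14a1), 4.63 (Slc6a6), 3.88 (Itih5), 2.0 (Abcg2), 4.63 (Ocln), 6.65 (Notum), 1.32 (Lrp6), 1.04 (Dnm2), 1.87 (Cav2), 2.91 (Synpo2), 2.96 (Rgs5), 2.81 (Tgfb2) and 2.45 (Bnip3). PDGFRb-specific risers, with the higher PDGFRb effect, had differences of 6.71 (Gbp4), 6.05 (Pglyrp1), 6.0 (Sh3tc2), 5.07 (Ly6e), 3.10 (Tie1), 4.50 (Lsr), 1.47 (Ephb4), 4.80 (Fn1), 2.71 (H2-D1), 2.05 (Tapbp), 2.52 (B2m), 4.53 (Usp18), 4.37 (Irf7), 3.43 (Ifit3), 3.39 (Cx3cl1), 4.28 (Cd274), 2.85 (Klf6), 2.61 (Ier2), 2.09 (Ier3), 1.62 (Herpud1), 3.74 (Itga6) and 3.63 (Itgb4). PDGFRb-specific fallers, with the lower PDGFRb effect, had differences of -5.80 (Syt15), -5.26 (Cttnbp2), -4.42 (Plxna4), -4.19 (Gpm6a), -4.78 (Pln), -1.76 (Smtn) and -1.40 (Notch1). Genes that fell in both sorts, with the higher PDGFRb effect, had differences of 2.86 (Cxcl12) and 2.56 (Lamc3). Genes that rose in both sorts, with the lower PDGFRb effect, had differences of -4.96 (Lamb1), -4.61 (Col15a1), -5.49 (Mmp14), -6.72 (Birc5), -4.95 (Ccnb2) and -6.65 (Cd276). Genes that rose in both sorts, with the higher PDGFRb effect, had differences of 2.21 (Lgals9) and 1.67 (Ldha). A group of Oaf, Melk, Pakap, Selp, Efemp1 and Cd276 held 3 counts or fewer, so that their fitted differences depend on the prior count and are no bounds.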

How the results depend on the processing

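Counts that moved by more than 1.5 times are given here, and the cause was not tested. DESeq2 gave 1613 lower PDGFRb effects, 645 concordant falls, 55 opposite genes up in PDGFRb, 166 opposite genes down in PDGFRb, 644 CD31-specific rises, 213 CD31-specific falls and 615 PDGFRb-specific falls. No low count filter gave 18 opposite genes up in PDGFRb and 79 CD31-specific falls. The mouse as a fixed block gave 153 higher PDGFRb effects and 192 lower PDGFRb effects. The mouse as a random block in limma-voom gave 541 PDGFRb-specific falls. The header date as a covariate gave 1679 CD31 calls, 1974 PDGFRb calls, 494 concordant rises, 124 concordant falls, 11 opposite genes up in PDGFRb and 18 opposite genes down in PDGFRb. The epithelial marker level as a covariate gave 810 CD31 calls, 1820 PDGFRb calls, 352 concordant rises, 106 concordant falls, 6 opposite genes up in PDGFRb, 0 opposite genes down in PDGFRb, 155 CD31-specific rises, 41 CD31-specific falls and 138 PDGFRb-specific falls. Leaving out both libraries of mouse 54135 gave 295 higher PDGFRb effects, 520 lower PDGFRb effects, 579 concordant rises, 46 opposite genes down in PDGFRb, 265 CD31-specific rises, 79 CD31-specific falls, 165 PDGFRb-specific rises and 153 PDGFRb-specific falls. Placing mouse 54135 by its cell type label gave 6 higher PDGFRb effects, 24 lower PDGFRb effects, 1201 CD31 calls, 1675 PDGFRb calls, 484 concordant rises, 90 concordant falls, 0 opposite genes up in PDGFRb, 8 opposite genes down in PDGFRb, 6 CD31-specific rises, 3 CD31-specific falls, 2 PDGFRb-specific rises and 10 PDGFRb-specific falls. Calls with a log2 change of at least 1 gave 21 opposite genes up in PDGFRb. Leaving out 1 library at a time gave 347 to 1009 higher PDGFRb effects, 631 to 1690 lower PDGFRb effects, 2212 to 6423 CD31 calls, 2660 to 5661 PDGFRb calls, 692 to 1409 concordant rises, 188 to 1193 concordant falls, 24 to 137 opposite genes up in PDGFRb, 53 to 202 opposite genes down in PDGFRb, 310 to 763 CD31-specific rises, 89 to 342 CD31-specific falls, 180 to 392 PDGFRb-specific rises and 174 to 514 PDGFRb-specific falls. The highest of each range is without the PDGFRb breast library of mouse 51950. Placed by the cell type label, mouse 54135 turned the sign of 17 differences: 0.55 (F3), -0.10 (Slc6a6), -0.73 (Sh3tc2), -0.75 (Flt1), -2.37 (Tie1), -1.12 (Abcg2), -0.29 (Ocln), -0.72 (Lsr), -0.37 (Ephb4), 0.99 (Abcc9), 1.52 (Art3), 0.94 (Efemp1), 1.41 (Fbln1), 0.60 (Ccnb2), 0.84 (Cd276), 0.54 (Aldoc) and -0.069 (Itga6). None of these was called then. The Uqcrc2 effect in the CD31 sort turned to 0.022 and 0.25 with the date and the epithelial covariate. In the PDGFRb sort it ran from -0.028 without the breast library of mouse 51950 to 0.81 without that of mouse 53072, and was called without that of mouse 52599 (adjusted p 0.0498). Over 107 named values and 19 left-out libraries, 1968 of 2033 fits kept direction and side of the threshold, 63 lost the call, 1 gained it and 1 turned. All 1425 for genes in the results kept theirs, but those genes were chosen with small p or large change, so this says little about stability. The 63 losses concern Lamc3, Cx3cl1, Lrp6, Ephb4, Smtn, Cav2 and Selp. The mouse as a fixed block ended 32 of 87 calls, given beside the genes named in the text, and kept the other 55. As a random block in limma-voom it took the call from 19 of 107 named values. Among these, Tie1, Rgs5, Art3 and Gja4 (adjusted p 0.232, 0.387, 0.0742 and 0.0662) had kept it with the fixed block. The CD31 and PDGFRb effects of Cd74 lost it too (0.158 and 0.0678). Depth limits low genes, above all in the PDGFRb breast library of mouse 51950, where 50.3% of tested genes were at 0.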

Other observations

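The counts of the other 15 pathway lists are read against 2.75% of all genes with the higher and 4.74% with the lower PDGFRb effect, 12.1% that rose and 4.38% that fell in the CD31 sort, and 12% that rose and 8.16% that fell in the PDGFRb sort. Of 9 MHC class II genes, 7 rose and 0 fell in the CD31 sort, 4 rose and 0 fell in the PDGFRb sort, and no difference between the sorts was called. Cd74, the invariant chain, was at 1.41, 3.49, 4.9, 2.68 and 2.14 CPM without tumor and 17.4, 366, 19.1, 948 and 1099.8 with it in the CD31 sort and 6.66, 43.7, 51.3, 4.07 and 9.9 CPM without tumor and 509.5, 263, 1232 and 548 with it in the PDGFRb sort, with no overlap in either. Its effects of 7.39 ± 1.17 and 4.79 ± 1.05 had no called difference (adjusted p 0.276). The PDGFRb effect was not called with the epithelial covariate (adjusted p 0.161). With the mouse as a random block in limma-voom neither the CD31 nor the PDGFRb effect was called (adjusted p 0.158 and 0.0678). Of 28 chemokines and cytokines, 8 rose and 1 fell in the CD31 sort, 17 rose and 2 fell in the PDGFRb sort, and 3 had the higher and 1 the lower PDGFRb effect. Cxcl12, which holds leukocytes at the vessel, fell in both sorts. CD31 libraries had 2190.5 to 3083 CPM without tumor and 43.3 to 92.4 with it, and PDGFRb libraries 164 to 383 CPM without tumor and 12.1 to 152 with it (difference 2.86 ± 0.71, adjusted p 0.0175, and 0.15 with the mouse as a block). Cx3cl1, a membrane-bound chemokine, was at 17.4, 23.2, 23, 24.9 and 23.7 CPM without tumor and 0.16, 116, 94.2 and 193 with it in the PDGFRb sort, with mouse 51950 lowest, and its call (difference 3.39 ± 0.99, adjusted p 0.0414, and 0.485 with the mouse as a block; -0.386 and 3.89 within the 2 header dates) was lost when any 1 of 17 libraries was left out. Of 14 leukocyte adhesion genes, 1 rose and 2 fell in the CD31 sort, 2 rose and 2 fell in the PDGFRb sort, and 0 had the higher and 1 the lower PDGFRb effect. Selp, P-selectin, rose in the CD31 sort (0.162 to 3.15 CPM without tumor and 39 to 106 with it), and PDGFRb libraries held at most 0.16 CPM (adjusted p of the difference 0.0117, and 0.0936 with the mouse as a block).

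Wnt signalling maintains the endothelial barrier. Of its 23 genes, 0 rose and 8 fell in the CD31 sort, 2 rose and 8 fell in the PDGFRb sort, and 3 had the higher and 0 the lower PDGFRb effect. Ctnnb1, beta-catenin, was opposite: it was at 1817, 1865, 1723, 1647 and 1782 CPM without tumor and 1216, 1223, 1446, 1025 and 1488 with it in the CD31 sort and 371, 392, 335, 365 and 329.8 CPM without tumor and 614, 500.4, 619 and 566 with it in the PDGFRb sort, with no overlap in either (difference 1.15 ± 0.19, adjusted p 8.58e-04). Notum, which inactivates Wnt ligands, fell in the CD31 sort (30.1 to 49.7 CPM without tumor and 0 to 3.01 with it; difference 6.65 ± 1.56, adjusted p 0.0123, and 0.41 with the mouse as a block). Lrp6, a Wnt coreceptor, fell there by 0.82 ± 0.25 (difference 1.32 ± 0.36, adjusted p 0.0304, and 0.185 with the mouse as a block). Of 10 caveolae and vesicle genes, 2 rose and 4 fell in the CD31 sort, 1 rose and 4 fell in the PDGFRb sort, and 2 had the higher and 1 the lower PDGFRb effect. Cavin3, a coat protein of caveolae, rose by 1.52 ± 0.37 in the CD31 and fell by 1.46 ± 0.40 in the PDGFRb sort (difference -2.98 ± 0.54, adjusted p 0.00219). Cav2, a caveolin, and Dnm2, dynamin 2, fell in the CD31 sort (-1.91 ± 0.34 and -1.36 ± 0.18). Their differences were 1.87 ± 0.49 (adjusted p 0.0229, and 0.0545 without mouse 54135) and 1.04 ± 0.25 (0.0151, and 0.0936 with the mouse as a block).

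Of 16 arterial genes, 2 rose and 3 fell in the CD31 sort, 2 rose and 4 fell in the PDGFRb sort, and 1 had the higher and 1 the lower PDGFRb effect, and of 13 venous genes, 4 rose and 1 fell in the CD31 sort, 5 rose and 1 fell in the PDGFRb sort, and 1 had the higher and 1 the lower PDGFRb effect. Gja4, connexin 37, rose in the CD31 sort (36.7 to 79.8 CPM without tumor and 93.4 to 258 with it; difference -2.37 ± 0.49, adjusted p 0.00561, and 0.164 with all 6 groups in the fit). Ephb4, the venous ephrin receptor, rose in the PDGFRb sort (7.58 to 22.1 CPM without tumor and 40.5 to 59.9 with it; difference 1.47 ± 0.42, adjusted p 0.0349, and 0.114 with the mouse as a block). Of 16 Notch genes, 2 rose and 2 fell in the CD31 sort, 0 rose and 4 fell in the PDGFRb sort, and 0 had the higher and 2 the lower PDGFRb effect. Notch1 fell in the PDGFRb sort from 373, 426, 357, 417 and 391 to 113, 198, 246 and 118 CPM (difference -1.40 ± 0.33, adjusted p 0.0115), and the target Nrarp rose in the CD31 sort by 3.97 ± 0.72 (difference -4.61 ± 0.99, adjusted p 0.00727, and 0.0929 with the mouse as a block). Of 9 PDGF genes, 1 rose and 2 fell in the CD31 sort, 0 rose and 1 fell in the PDGFRb sort, and 1 had the higher and 1 the lower PDGFRb effect. The ligand gene Pdgfc rose in the CD31 sort from 0.162, 0.81, 0.057, 0 and 0.306 to 33.7, 20.2, 16.7, 22 and 26.3 CPM, and was at 13.8, 23.5, 4.33, 9.08 and 15.1 CPM without tumor and 0, 3.35, 6.53 and 16.7 with it in the PDGFRb sort (difference -7.43 ± 1.43, adjusted p 0.0032).

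Of 20 smooth muscle contractile genes, 1 rose and 6 fell in the CD31 sort, 1 rose and 6 fell in the PDGFRb sort, and 1 had the higher and 2 the lower PDGFRb effect. Pln, phospholamban, which restrains calcium uptake, fell in the PDGFRb sort from 254, 361, 87.4, 138 and 226 to 0, 1.17, 3.16 and 6.48 CPM (difference -4.78 ± 1.19, adjusted p 0.0174, and 0.28 with the mouse as a block). Smtn, smoothelin, fell there by 1.21 ± 0.35 (difference -1.76 ± 0.48, adjusted p 0.0276, and 0.0594 with the mouse as a block), and Synpo2, an actin binder, fell in the CD31 sort by 3.80 ± 0.52 (difference 2.91 ± 0.69, adjusted p 0.0131, and 0.116 with the mouse as a block). Of 18 perivascular fibroblast genes, 2 rose and 2 fell in the CD31 sort, 2 rose and 4 fell in the PDGFRb sort, and 1 had the higher and 2 the lower PDGFRb effect. Fbln1, fibulin 1, rose in the CD31 sort (1.08 to 1.58 CPM without tumor and 4.95 to 25.5 with it; difference -3.0 ± 0.62, adjusted p 0.0055). Efemp1, fibulin 3, was at 0 in all CD31 non-tumor libraries and at 0.642, 2.45, 0.297, 0.989 and 0.833 CPM in breast ones, at least 28-fold higher, and fell in the PDGFRb sort (46.8 to 170.4 CPM without tumor and 2.78 to 39.5 with it). Lamc3, the laminin gamma-3 chain, fell in both sorts (-4.22 ± 0.60 and -1.66 ± 0.57), and its call (difference 2.56 ± 0.77, adjusted p 0.0483, and 0.454 with the mouse as a block) was lost when any 1 of 17 libraries was left out. Of 17 integrin genes, 8 rose and 2 fell in the CD31 sort, 6 rose and 0 fell in the PDGFRb sort, and 2 had the higher and 0 the lower PDGFRb effect. Itga6 and Itgb4, which pair as a laminin receptor, rose in the PDGFRb sort: Itga6 had 1.88 to 24 CPM without tumor and 58.4 to 176 with it, and Itgb4 0.363 to 2.79 CPM without tumor and 18.8 to 119 with it. The differences were 3.74 ± 0.72 and 3.63 ± 0.94 (adjusted p 0.00329 and 0.0219, the latter 0.0782 without mouse 54135).

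Of 28 hypoxia and glycolysis genes, 15 rose and 3 fell in the CD31 sort, 12 rose and 0 fell in the PDGFRb sort, and 3 had the higher and 3 the lower PDGFRb effect. Ldha, lactate dehydrogenase A, rose in the PDGFRb sort from 532, 554, 406, 550.1 and 536 to 1539, 2475, 3188 and 2459 CPM and by 0.55 ± 0.17 in the CD31 sort (difference 1.67 ± 0.25, adjusted p 3.97e-04). Bnip3, a mitophagy receptor, fell in the CD31 sort by 1.79 ± 0.42 (difference 2.45 ± 0.60, adjusted p 0.016), and Aldoc, an aldolase also made by astrocytes, rose there by 4.55 ± 0.98 (difference -5.72 ± 1.35, adjusted p 0.0128, and 0.159 with the mouse as a block). Of 22 ER folding and collagen processing genes, 8 rose and 0 fell in the CD31 sort, 11 rose and 0 fell in the PDGFRb sort, and 1 had the higher and 1 the lower PDGFRb effect. Fkbp10, a collagen chaperone, rose in the CD31 sort (13.2 to 26.9 CPM without tumor and 129.7 to 305 with it; difference -2.95 ± 0.46, adjusted p 6.24e-04), and Herpud1, of ER-associated degradation, rose in the PDGFRb sort by 0.85 ± 0.28 (difference 1.62 ± 0.39, adjusted p 0.0149, and 0.185 with the mouse as a block). Of 34 oxidative phosphorylation genes, 6 rose and 0 fell in the CD31 sort, 12 rose and 0 fell in the PDGFRb sort, and no difference between the sorts was called. Uqcrc2, of complex III, had the smallest adjusted p of the difference (0.212) and effects of -0.17 ± 0.27 and 0.69 ± 0.28.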
